A study of Mus musculus with 2 samples.

Results

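Muscle-like medullary thymic epithelial cells (mTECs) were chosen by their counts of 7 genes, as the cells that held at least 1 unique molecular identifier (UMI, 1 counted RNA molecule) of at least 3 of the skeletal muscle genes Acta1, Myl1, Myog, Actc1, Klhl41, Ckm and Rbm24. They numbered 84 of 8534 kept cells. A kept cell had 1000 or more UMIs over 500 or more genes, and mitochondrial genes gave less than 15% of its UMIs. The levels of the 7 genes in the chosen cells are therefore a description and were not tested against the other cells. All cells came from wild-type female C57BL/6J mice aged 4 weeks. The treated mice had received spermidine (15 mg/kg) in phosphate-buffered saline (PBS) by injection into the peritoneum on 7 days in a row, and the controls PBS without it. CD45-positive cells were depleted and mTEChi and post-Aire mTEClo cells were sorted, after which 4 samples, 2 per treatment, were tagged with hashtag antibodies to CD45 and MHC class I and pooled into 1 run of the 10x 3' v3 chemistry. Whether the replicates were separate mice is not given in the labels. A p-value here therefore reflects only how far hashed samples lie apart, and that spread may be technical.

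mTECs display the antigens of other organs to developing T cells, and the nuclear protein AIRE switches many of those genes on in single cells. Some mTECs, called mimetic cells, take on a broader program of another cell type, and the muscle-like kind is known for Myog, the transcription factor that drives myoblasts into their final differentiation. In skeletal muscle Myf5 and Myod1 act before Myog, and Myog and MEF2 factors then switch on the actin, myosin and calcium-handling genes of the contractile apparatus.

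The 84 cells held from 7674 to 72301 UMIs, with a median of 28477.5 and a median of 6236 genes, while the other 8450 kept cells had a median of 15835 UMIs. Deeper cells pass a rule on detected genes more easily, so shares of cells are compared after thinning every cell to 5000 UMIs. By hashtag, 19 of the cells came from PBS replicate 1, 13 from PBS replicate 2, 11 from spermidine replicate 1 and 7 from spermidine replicate 2. A further 16 cells (19.05%, against 12.03% of kept cells) were hashtag doublets and 18 carried none of the 4 labelled hashtags.

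Clustering of all kept cells split the 84 cells in a way that the label does not show. One cluster of 79 cells was led by Myl1, Acta1, Meg3, Myog, Actc1, 5430431A17Rik, Klhl41, Ckm, Rbm24 and Rian, in which all 7 genes of the rule appear. It held 55 of the 84 cells, called clustered muscle-like cells here, together with 24 cells that did not pass the rule. The other 29 cells, called dispersed here, lay in other clusters, 7 of them in a cluster led by Mt4 and Rarres1. In 4 clusters, called tuft-marker clusters here, at least 6 of 8 tuft cell markers were more than 2-fold higher. These clusters held 3, 6, 2 and 2 dispersed cells. Sarcomere genes, 56 genes of the thin filament, thick filament, Z-disc and M-band, made up a median of 0.463% of the UMIs of a clustered cell (range 0.0533% to 4.23%). Their median was 0.0874% in dispersed cells and 0.0722% in the other kept cells. The dispersed cells thus had sarcomere transcripts at close to the level of cells outside the rule, and their label rests on few UMIs: 27 of the 29 had exactly 3 of the 7 genes. One dispersed cell had all 7 genes.

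Cells just inside and just outside the rule looked alike in sarcomere share and differed more in the part that lay in the muscle-led cluster. The 40 cells with exactly 3 genes had a median sarcomere share of 0.0856%, a median of 3 Myog UMIs, and 13 of them lay in the muscle-led cluster. The 227 cells with 2 genes had a median sarcomere share of 0.0936%, a median of 1 Myog UMI, and 12 of them lay in that cluster. The 17 cells with all 7 genes had a median sarcomere share of 1.15% and a median of 119 Myog UMIs. Myog is a gene of the rule, and the sarcomere share includes Acta1, Actc1, Myl1 and Klhl41. Both values therefore rise with the number of genes in part by construction.

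**Figure D1:**
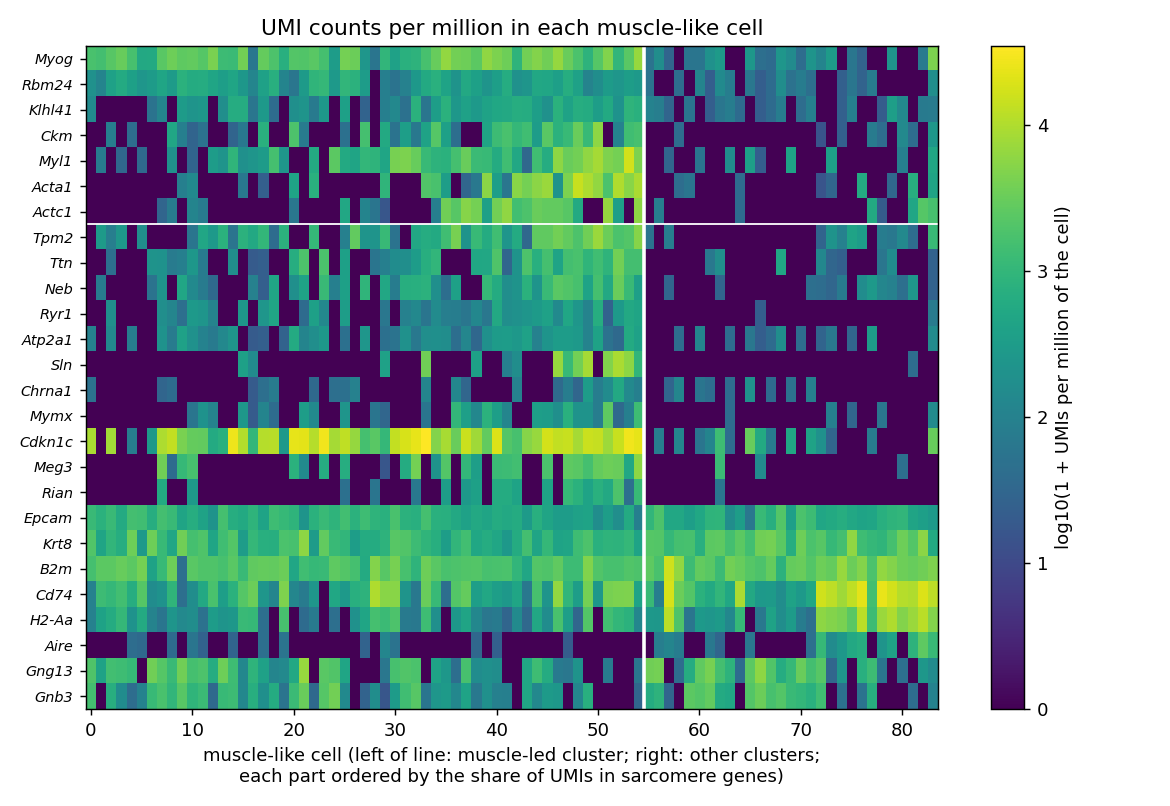
Each column is 1 of the 84 muscle-like cells, each row a gene, and colour gives log10 of 1 plus CPM, the UMIs of a gene scaled to a common total per cell. The first 7 rows are the genes of the rule. The 55 clustered cells are left of the white line and the 29 dispersed cells right of it, each ordered by sarcomere share. Myog, Rbm24 and Cdkn1c fill most columns on the left, while Acta1, Actc1 and Sln are filled towards the cells with more sarcomere transcripts.

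The sequences upstream of 3 of the 7 genes, Myog for the regulator, Acta1 for the filament and Klhl41 for sarcomere assembly, are shown because these genes were read together in the same cells. They come from RefSeq promoter windows on GRCm38.p6, are written 5' to 3' on the gene's strand and end before the GENCODE gene begins. Capitals mark E-boxes (CANNTG, the motif that myogenic factors bind), CArG boxes (CCWWWWWWGG, bound by serum response factor) and MEF2 sites (YTAWWWWTAR). W is A or T, Y is C or T, and R is A or G. Only exact matches are marked, so ctatatttat in the Myog window, which ends in T, stays in lower case. An unmarked stretch therefore does not show that a site is absent.
Myog, chr1:134289754-134289988, plus strand: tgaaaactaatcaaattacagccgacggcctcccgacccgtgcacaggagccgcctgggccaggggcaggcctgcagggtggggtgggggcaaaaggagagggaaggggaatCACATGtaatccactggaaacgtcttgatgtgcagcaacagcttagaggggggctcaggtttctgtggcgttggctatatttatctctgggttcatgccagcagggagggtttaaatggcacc
Acta1, chr8:123894776-123895025, minus strand: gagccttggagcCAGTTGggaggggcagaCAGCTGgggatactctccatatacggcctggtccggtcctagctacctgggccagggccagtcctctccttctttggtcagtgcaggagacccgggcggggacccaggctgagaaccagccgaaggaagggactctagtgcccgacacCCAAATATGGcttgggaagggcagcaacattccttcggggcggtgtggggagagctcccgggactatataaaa
Klhl41, chr2:69669870-69670119, plus strand: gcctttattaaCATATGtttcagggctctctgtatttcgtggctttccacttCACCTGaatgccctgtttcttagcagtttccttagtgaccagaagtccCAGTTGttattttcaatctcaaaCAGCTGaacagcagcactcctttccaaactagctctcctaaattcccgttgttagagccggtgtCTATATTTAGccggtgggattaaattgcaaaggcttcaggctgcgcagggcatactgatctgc

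The Acta1 window holds 2 E-boxes, 1 of them CAGCTG, and a CArG box 73 bases before the RefSeq start. The Klhl41 window holds 4 E-boxes, 1 of them CAGCTG, and a MEF2 site 63 bases before the start. The part of the Myog window shown holds 1 E-box, and a second lies in the 15 bases left out because GENCODE places them inside the gene. Both strands were searched, and CAGCTG is itself an E-box. Of 32851 RefSeq windows of 250 bases, 66.2% hold an E-box, 13.0% CAGCTG, 1.47% a CArG box and 2.92% a MEF2 site. Of the 7 windows of the rule's genes, 6 hold an E-box, 4 CAGCTG, 2 a CArG box and 1 a MEF2 site by these patterns. The windows of Myl1, Actc1 and Ckm lie with all 250 bases inside the GENCODE gene. They include the CAGCTG of Myl1 and of Ckm and the CArG box of Actc1. These are matches of letters in a window, and no binding was measured here.

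Among the regulators, Myog marked the clustered cells most evenly. It lies at chromosome 1, 134289989 to 134292548 (GRCm38, GENCODE M21). All 55 clustered cells held a Myog UMI, with a lowest level of 56.1, a median of 2314 and a highest of 6985 CPM (the UMIs of a gene scaled to a common total of UMIs per cell, or per group of cells). Of the 29 dispersed cells 21 held one, with a median of 56.0 and a highest value of 4446 CPM. Summed over cells, the level of Myog was 2509 CPM in clustered cells, 290 in dispersed cells and 16.5 in the other kept cells. At 5000 UMIs per cell, 96.4% of clustered cells, 4.49% of 7256 other kept cells and 0.70% of 143 cells of the thymocyte-like cluster held a Myog UMI; 1194 other kept cells, 74 of them thymocyte-like, were too shallow. The thymocyte-like cluster (217 cells, led by T cell receptor and Cd3 genes, median 6467 UMIs) is given for comparison, since T cells lack this program. It is no clean measure of free RNA in droplets. At 5000 UMIs per cell the epithelial genes Krt8 and Epcam were found in 50.3% and 37.1% of its cells. Whether free RNA or mixed barcodes gave these was not tested.

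The factors that precede Myog in muscle were not detected. Myod1, Myf5 and Lbx1, which act in muscle precursors, had no UMI in any of the 84 cells, which allows up to 3.57% of cells with a UMI. Pax3 and Pax7, markers of muscle progenitors, had UMIs in 2 and 1 dispersed cells and in no clustered cell. Myf6, a late myogenic factor, was detected in 10 clustered cells, with 46.6 CPM in the sum over clustered cells and 1.07 in other kept cells. Mef2c, a partner of Myog, stood at 82.7 CPM in clustered cells against 4.56 in other kept cells, and Mef2a at 363 against 91.1. Rbm24, an RNA-binding protein that sets muscle splicing, held a UMI in 54 of 55 clustered cells, with a median of 351 and a highest level of 1042 CPM. Its sum was 382 CPM in clustered, 39.5 in dispersed and 6.06 in other kept cells. Of the 16 myogenic factors listed, 9 were more than 2-fold higher in clustered cells than in the other kept cells and 5 were below 0.5-fold.

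For scale, 9.24% of 30509 genes were more than 2-fold higher in clustered cells than in the other kept cells and 52.1% were below 0.5-fold. Over all 84 cells these shares were 9.49% and 40.8%. Since the rule and the clustering used these counts, nothing is read from list counts set against these shares.

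The filament genes were present in part of the cells only. Acta1, skeletal muscle alpha-actin (chromosome 8, 123891769 to 123894751), was detected in 28 of 55 clustered and 9 of 29 dispersed cells. Its level ranged from 0 through a median of 22.4 to a highest value of 14376 CPM of a clustered cell, and the 5 cells with the most Acta1 held 52.6% of the Acta1 UMIs of the clustered cells. Actc1, the cardiac alpha-actin that developing skeletal muscle also uses, was detected in 27 clustered cells, with a highest level of 6757 CPM. Myl1, a myosin light chain of fast fibres, was detected in 45, with a median of 633 and a highest level of 17217 CPM. Klhl41, a Kelch protein of sarcomere assembly, was detected in 44, and Ckm, the muscle creatine kinase, in 36. At 5000 UMIs per cell, Acta1 was found in 41.8%, Actc1 in 38.2%, Myl1 in 70.9%, Klhl41 in 49.1% and Ckm in 47.3% of clustered cells. The same shares in the other kept cells were 0.58%, 0.50%, 1.07%, 0.81% and 1.38%, and in the thymocyte-like cluster Acta1, Actc1 and Myl1 were found in 0 of 143 cells.

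Of 17 thin filament genes, 13 were more than 2-fold higher in clustered cells than in other kept cells. Tpm2, a tropomyosin, stood at 1058 CPM in clustered and 164 in other kept cells, Neb (nebulin, the ruler of the thin filament) at 484 and 25.7, and Tnni2 (a fast troponin I) at 80.3 and 8.25. Tnnc1, the slow and cardiac troponin C, had 2.45 against 9.38, and Lmod2, which lengthens actin filaments, had no UMI. Of 17 thick filament genes, 7 were more than 2-fold higher and 8 below 0.5-fold. Mylpf, a fast regulatory light chain, stood at 745 against 37.0 and Ttn (titin) at 535 against 60.1. The myosin heavy chains, the motor itself, were detected in few cells. Myh1, an adult fast chain, stood at 69.3 against 1.65, from 113 UMIs in 3 clustered cells, 67 of them in 1 cell. Myh3 (embryonic) had UMIs in 3 clustered cells, and Myh4, Myh7 and Myh8 in none, while Myh2 and the light chain Myl3 had no UMI in any of the 84 cells.

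Of 22 Z-disc and M-band genes, 10 were more than 2-fold higher. Des, the muscle intermediate filament desmin, stood at 144 CPM in clustered and 18.95 in other kept cells, and Cryab, a small heat shock protein, at 166 and 54.7. Tcap, Myoz2, Csrp3 and Xirp2, which are Z-disc or intercalated disc proteins of mature muscle, had no UMI in the 84 cells, and Actn2 had UMIs in 2 dispersed cells only.

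Of 17 genes of excitation and calcium handling, 10 were more than 2-fold higher. Ryr1, the calcium release channel of skeletal muscle, was detected in 39 of 55 clustered and 2 of 29 dispersed cells, with sums of 165 and 4.65 CPM against 2.68 in other kept cells. Atp2a1, the calcium pump that refills the store, stood at 159 in clustered and 4.25 in other kept cells. Sln, the small inhibitor of that pump, was detected in 15 clustered and 1 dispersed cell and reached 9234 CPM in 1 cell. Stac3, needed for coupling of the voltage sensor to the release channel, stood at 91.3 against 1.72. Cacna1s, the voltage sensor, stood at 1.23 against 29.0 and Casq2, a cardiac calcium store protein, had no UMI.

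Of 12 genes of the neuromuscular junction, 6 were more than 2-fold higher. Subunits of the muscle acetylcholine receptor are the target of antibodies in myasthenia gravis. The alpha subunit Chrna1 stood at 39.2 CPM in clustered and 4.70 in other kept cells, the beta subunit Chrnb1 at 36.2 and 4.25, the delta subunit Chrnd at 31.9 and 1.45, and the fetal gamma subunit Chrng at 23.3 and 2.32. The adult epsilon subunit Chrne stood at 3.68 and 7.82. So the fetal form of the receptor was the one whose subunits were all higher in the clustered cells. Rapsn, which clusters the receptor, stood at 23.3 and 1.16. Musk, the kinase that receives the nerve's agrin signal, had UMIs in 3 clustered and 2 dispersed cells.

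Genes of muscle energy supply and fusion showed the same mixture. Of 16 energy genes, 8 were more than 2-fold higher: Ckb, the brain creatine kinase, stood at 1210 against 49.2 CPM, Ckm at 599 against 6.65 and Cox8b, a respiratory chain subunit of muscle, at 139 against 5.14. Mitochondrial creatine kinase Ckmt2 had no UMI. Of 12 adhesion and fusion genes, 4 were more than 2-fold higher. Mymx, the micropeptide that opens the fusion pore, was detected in 30 clustered cells at 219 CPM in sum (5.44 in other kept cells). Mymk, its membrane partner, was detected in 8 clustered cells at 11.6 (1.91).

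**Figure D2:**
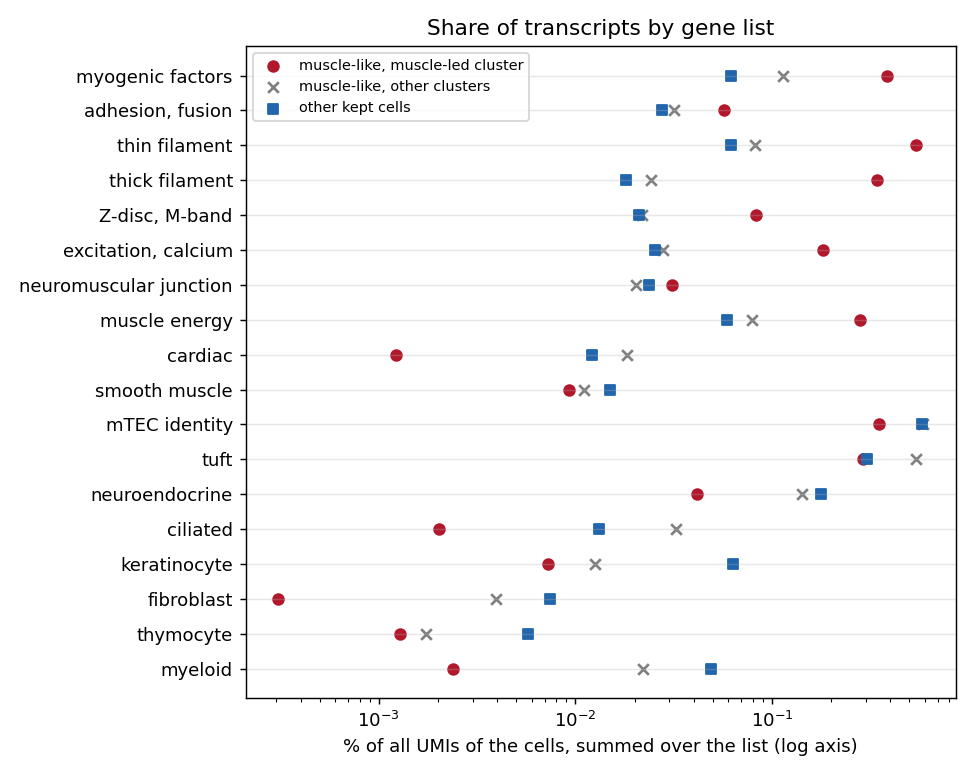
For each gene list, the points give the percent of all UMIs that fell on its genes, on a log axis, summed over the 55 clustered cells (red circles), the 29 dispersed cells (grey crosses) and the 8450 other kept cells (blue squares). The muscle lists stand to the right in clustered cells, and the cardiac, ciliated, fibroblast and myeloid lists to the left. In the dispersed cells the sarcomere lists lie near the other kept cells.

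Of 12 cardiac genes 11 were below 0.5-fold their level in other kept cells, Nppa (a heart natriuretic peptide) had no UMI in clustered cells, and Nkx2-5 and Nppb had none in any of the 84. Of 8 smooth muscle genes 5 were below 0.5-fold and 1, Smtn, was more than 2-fold higher (31.3 against 12.2). The smooth muscle genes took a median of 0.0058% of the UMIs of a clustered cell and 0.0030% of another kept cell.

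Imprinted genes were also high in the clustered cells. Cdkn1c, the cell cycle inhibitor p57, was detected in 52 of 55 clustered cells, with a lowest value of 0, a median of 8636 and a highest level of 34667 CPM. Its sum was 9442 CPM in clustered cells, 342 in dispersed cells, 213 in other kept cells and 35.2 in the thymocyte-like cluster. At 5000 UMIs per cell it was found in 92.7% of clustered cells and 18.9% of other kept cells. Meg3 and Rian, non-coding RNAs of 1 imprinted locus, were detected in 27 and 20 clustered cells, with sums of 824 and 215 against 2.87 and 2.10 in other kept cells. Dlk1, the protein-coding gene of that locus, stood at 346 against 20.01. Of 9 imprinted growth genes, 7 were more than 2-fold higher and none below 0.5-fold. Of 14 cell cycle genes 8 were below 0.5-fold, beside 52.1% of all genes, and the list took 0.0975% of the UMIs of clustered cells and 0.111% of those of other kept cells. The division marker Mki67 stood at 12.9 against 44.1 and Cdk1 at 7.97 against 49.7.

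The 20 genes outside the muscle lists with the highest ratio over other kept cells included others with a known place in muscle. Hjv, a co-receptor of bone morphogenetic proteins made by muscle and liver, was detected in 27 clustered and 2 dispersed cells and was 189-fold higher over all 84 cells. Vgll2, a cofactor of muscle transcription, was 31.3-fold higher, Srpk3, a muscle kinase of splicing factors, 33.5-fold, and Ppp1r3a, the glycogen-targeting phosphatase subunit of muscle, 32.0-fold. Others belong to other tissues: Cnr1, the brain cannabinoid receptor, was 65.6-fold higher and Sag, the arrestin of photoreceptors, 26.4-fold. Sag was detected in 28 clustered and 11 dispersed cells.

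The clustered cells kept the epithelial markers Epcam and Krt8, while much of the wider list was lower. Of 14 listed genes of mTEC identity, 8 were below 0.5-fold their level in other kept cells and 0 were more than 2-fold higher. Of all genes, 52.1% were below 0.5-fold and 9.24% more than 2-fold higher. Epcam was found in all 55, with a lowest level of 91.1, a median of 681 and a highest of 1734 CPM, and its sum was 742 against 790 in other kept cells. Krt8, a keratin of simple epithelia, was also found in all 55 (1163 against 1683). Aire was near zero: 41 of the 55 had no Aire UMI, and the sum was 15.3 CPM in clustered cells, 365 in dispersed cells, 418 in other kept cells and 195 in the thymocyte-like cluster. So the clustered cells lay below the thymocyte-like cluster for Aire, and that cluster is no clean measure of free RNA. Among the 29 dispersed cells Aire was uneven. An Aire UMI was held by 17 of them, with a median of 61.9 and a highest level of 2545 CPM over the 29.

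Antigen presentation differed by class. MHC class II gene H2-Aa stood at 477 CPM in clustered, 3842 in dispersed and 3974 in other kept cells, and at 1672 in the thymocyte-like cluster. The invariant chain Cd74 stood at 1652, 8916, 10206 and 3830 in the same order. In the 4 tuft-marker clusters, with muscle-like cells left out, H2-Aa stood at 288 to 591 CPM. A low H2-Aa level was thus not particular to the clustered cells. The thymocyte-like cells were shallower. At 5000 UMIs per cell H2-Aa was found in 54.5% of clustered and 57.3% of thymocyte-like cells and Cd74 in 87.3% and 83.9%. The shares in other kept cells were 84.7% and 93.7%. So these shares of clustered cells lay close to those of the thymocyte-like cluster. For H2-Aa the share in the 4 tuft-marker clusters was 52.9% to 68.7%. Among MHC class I genes, which the hashtag antibodies also bind as protein, H2-K1 stood at 2255, 2916, 3171 and 1871. B2m, the class I light chain, stood at 2050 in clustered and 4057 in other kept cells. Of 14 presentation genes 9 were below 0.5-fold in clustered cells.

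Markers of other cell types were low. Of the thymocyte, myeloid, fibroblast and erythroid lists (8, 8, 8 and 5 genes), every gene was below 0.5-fold its level in other kept cells, and of 8 endothelial genes 7 were. Cd8b1, Rag1, Itgax, Tyrobp, Pdgfra, Lum, Cdh5 and Kdr had no UMI in the 84 cells. All 8 keratinocyte genes and 7 of 8 ciliated genes were also below 0.5-fold.

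Tuft cell genes were the exception. Tuft cells are chemosensory epithelial cells, and the thymus holds a mimetic kind. Of 8 tuft genes none was below 0.5-fold in clustered cells. Gng13 and Gnb3, G-protein subunits of taste signalling, stood at 851 and 521 CPM in clustered cells. In the 4 clusters with at least 6 tuft markers more than 2-fold higher they stood at 1522 to 2849 and 398 to 2285. In 13 other clusters, with the muscle-led and thymocyte-like clusters left out, they stood at 57.3 to 220 and 19.6 to 102, and in the thymocyte-like cluster at 329 and 113. Gng13 was detected in 43 clustered cells (median 411 CPM) and Gnb3 in 47 (median 179). Without the 15 clustered cells called hashtag doublets with 4 or 6 hashtags, the levels in the remaining 40 were 907 and 563. Dclk1 behaved otherwise, at 1198 in those 15 cells and 45.5 in the other 40. Hashtags do not mark doublets within a sample, and whether doublets gave the tuft transcripts was not tested. Trpm5, the tuft ion channel, stood at 133 in clustered cells against 567 to 884 in the 4 tuft-marker clusters and 18.5 to 77.1 in the 13 others.

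Cells outside the rule also held Myog, in the 24 other cells of the muscle-led cluster (15 cells, 735 CPM) and in part of the tuft-marker clusters. Of the other kept cells 800 held a Myog UMI. Leaving muscle-like cells out, Myog stood at 11.5 to 74.2 CPM in the 4 tuft-marker clusters and at 2.26 to 10.3 in the 13 others. At 5000 UMIs per cell the share with a Myog UMI was 21.5% in the cluster led by Rgs21, Scn2a and the taste receptor Tas2r105 (59 of 274 cells), 14.9%, 6.30% and 4.44% in the other tuft-marker clusters, 4.49% in the highest of the 13 others and 0.70% in the thymocyte-like cluster. Acta1 stayed at 0.62 to 1.47 CPM in those 4 clusters. Clusters are not replicates, and these differences were not tested.

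The clustered cells varied along the amount of sarcomere transcripts. Of the 55 cells, 17 had a sarcomere share above 1% and 29 a share under 0.5%. Across these 55 cells, which share 1 run, Spearman's rho with the sarcomere share was 0.29 for Myog, -0.10 for Rbm24, 0.62 for Rian, 0.55 for Mymx, 0.49 for Ryr1 and 0.43 for Cdkn1c. It was -0.54 for Epcam, -0.52 for Gng13 and -0.41 for Gnb3, and 0.20 for the cell's total UMIs. Acta1, Myl1 and the other filament genes are part of the share and are not listed.

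Acta1 is a gene of the rule and part of the sarcomere share, so the 28 clustered cells with Acta1 and the 27 without it describe the same ordering and are no second observation. Median depth was 31704 and 26265 UMIs. Myog had a median of 2995 CPM in cells with Acta1 (range 843 to 6985) and 1564 in those without (56.1 to 4277), so the ranges overlap widely. Mymx was found in 22 and 8 cells, Ryr1 in 27 and 12, Meg3 in 20 and 7, and Sln in 14 and 1. Gng13 had sums of 400 and 1387 CPM, Gnb3 237 and 860, and Epcam 531 and 994. H2-K1 was nearly level at 2228 and 2287. A cell without Acta1 had to hold at least 3 of the other genes of the rule, a set that includes Myog. Transcript shares within a cell add to a fixed total, and the part of this in the lower shares was not tested.

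**Figure D3:**
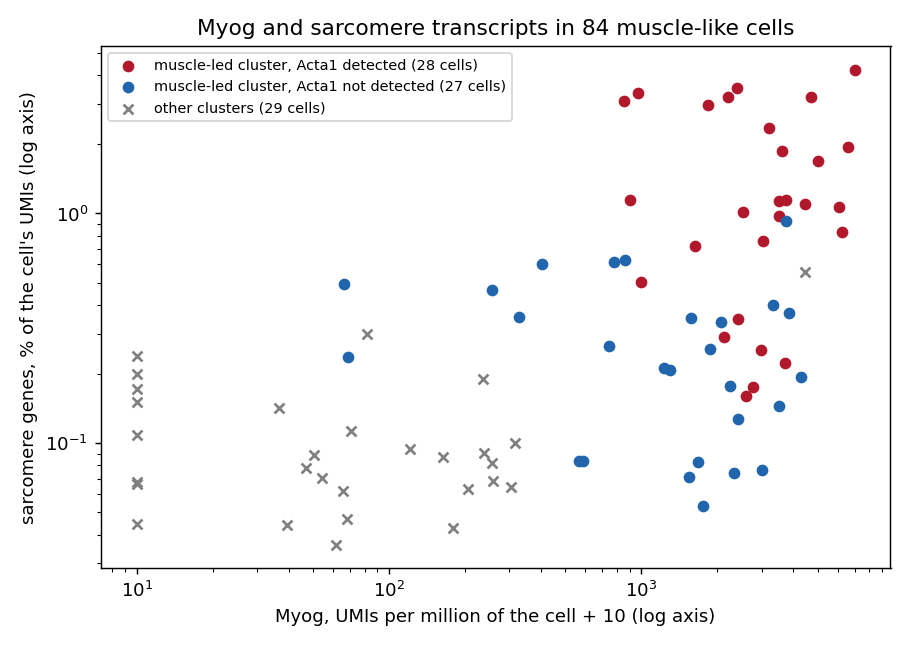
Each point is 1 of the 84 muscle-like cells, with Myog in CPM plus 10 on the horizontal log axis and the percent of UMIs in sarcomere genes on the vertical log axis. Red points are clustered cells with Acta1 (28), blue points clustered cells without (27) and grey crosses dispersed cells (29). Cells with high Myog span sarcomere shares from under 0.1% to 4.23%.

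The study compared spermidine with PBS. The share of muscle-like cells was 1.42% in PBS replicate 1 (19 of 1335 kept cells, exact Clopper-Pearson 95% interval 0.859 to 2.21), 1.31% in PBS replicate 2 (13 of 993, 0.699 to 2.23), 0.801% in spermidine replicate 1 (11 of 1374, 0.400 to 1.43) and 0.695% in spermidine replicate 2 (7 of 1007, 0.280 to 1.43). Both spermidine samples lay below both PBS samples, while the 4 intervals, which cover counting error only, overlap. The PBS mean was 1.37% ± 0.0807 (SD, n = 2), and the spermidine mean 0.748% ± 0.0746 (SD, n = 2). The exact two-sided permutation test gave p = 0.333, the smallest value that 2 against 2 samples allow. With only clustered cells the shares were 0.824%, 0.906%, 0.509% and 0.298%, and with every cell of the muscle-led cluster 1.35%, 1.31%, 0.801% and 0.596%, in the same order of samples. With every kept cell thinned to 1000 UMIs the means were 0.301% and 0.281%, a difference of -0.0196 percentage points in place of -0.618 (exact permutation p = 1). The clusters with markers of mimetic cells together held 59.4% and 49.0% of kept cells with PBS and 39.9% and 37.1% with spermidine. As a share of those clusters, clustered muscle-like cells were 1.39% and 1.85% against 1.28% and 0.802%. The sort and the pooling can set these shares, and their part in the difference was not tested.

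The makeup of the 4 sets of cells differed. Clustered cells were 11 of 19, 9 of 13, 7 of 11 and 3 of 7 of the muscle-like cells, in the order PBS replicates 1 and 2 and spermidine replicates 1 and 2. MHC class II genes took 0.345%, 0.554%, 0.182% and 2.30% of their UMIs, so spermidine replicate 2 stood apart. In its 3 clustered cells alone H2-Aa was at 70.5 CPM, against 330, 507 and 266 in the clustered cells of the other samples. Sarcomere genes took 0.630%, 0.401%, 0.809% and 0.867% of the UMIs, higher in both spermidine samples than in both PBS samples. They include Acta1, Actc1, Myl1 and Klhl41 of the rule. Tuft genes summed to 6061, 4267, 4887 and 906 CPM. The part of this makeup in the gene differences below was not tested.

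No gene differed between spermidine and PBS in muscle-like cells by edgeR's quasi-likelihood test on UMIs summed per sample (561444, 302771, 278098 and 211973 UMIs). Of 5495 genes tested, 0 (0%) had a Benjamini-Hochberg adjusted p under 0.05, while an unadjusted p under 0.05 was reached by 132 genes on the higher side and 88 on the lower. The smallest adjusted p was 0.9999. DESeq2 called 2 genes. The genes with the smallest p are given as values only, in TMM-scaled CPM, with the edgeR log2 fold change and its standard error (SE).

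Acta1 stood at 879 and 794 with PBS and at 2400 and 2020 with spermidine (log2 fold change 1.40, SE 0.26). The genes of the rule chose these cells, so their levels here are not free of that choice. One cell gave 51.9%, 82.4%, 79.2% and 85.2% of the Acta1 UMIs of the 4 samples. Actc1 stood at 223 and 612 with PBS and at 1889 and 1607 with spermidine (2.08, SE 0.52). The other genes of the rule were less apart. Klhl41 stood at 217 and 140 against 370 and 304 (0.91, SE 0.34), and Ckm at 348 and 125 against 848 and 379 (1.36, SE 0.62). Myog stood at 1196 and 2483 against 2332 and 2582 (0.42, SE 0.39), Myl1 at 2171 and 506 against 1162 and 1044 (-0.28, SE 0.66) and Rbm24 at 277 and 412 against 350 and 281 (-0.12, SE 0.34). PBS and spermidine values overlap for Myog, Myl1 and Rbm24, and the share of all genes without overlap was not counted. Cdkn1c stood at 7543 and 7317 against 7976 and 7327 (0.04, SE 0.21). In the clustered cells alone its CPM were 12172 and 8453 against 10071 and 15005.

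Efna5, an ephrin ligand, had the smallest p: 25.0 and 26.5 with PBS, 161 and 189 with spermidine (2.75, SE 0.32), from 13, 7, 40 and 33 UMIs. Myo16, an unconventional myosin of neurons, stood at 11.5 and 3.78 against 113 and 264 (4.35, SE 0.67), and had UMIs in 1, 1, 2 and 3 cells. Ccdc155, a meiotic protein of the nuclear envelope, stood at 36.5 and 52.9 against 181 and 207 (2.14, SE 0.34), and Frmd3 at 28.8 and 34.0 against 153 and 103 (2.05, SE 0.37). One cell held 97.4% of the Frmd3 UMIs of spermidine replicate 1. With counts capped at 10 per cell the log2 fold change of Frmd3 was 1.15 and that of Clca3a2 -1.29, and with at least 2 genes of the rule that of Efna5 was 0.62. On the lower side Clca3a2, of the calcium-activated chloride channel regulator family, stood at 350 and 223 against 72.4 and 34.4 (-2.38, SE 0.46), and Zfp36, which degrades AU-rich messages, at 277 and 185 against 84.4 and 86.1 (-1.45, SE 0.34). Gm26532 (-3.03, SE 0.52), the protease Ctsc (-1.78, SE 0.40) and the tetraspanin Tspan1 (-1.54, SE 0.37) were the other lower genes of smallest p. With Acta1, these 10 each had an edgeR adjusted p of 0.9999. The 2 genes that DESeq2 called were Myo16 (log2 fold change 4.47, DESeq2 adjusted p = 0.0114) and S100a8, a calcium-binding protein of neutrophils (3.71, DESeq2 adjusted p = 0.0476). S100a8 had 24, 2, 48 and 97 UMIs, and 1 cell held 91.7% and 96.9% of those of the spermidine samples.

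By list, 0 genes passed in any list (edgeR). The median log2 fold change over all 5495 genes was 0.03, with 2898 higher and 2597 lower. Of 10 thin filament genes tested 7 were higher, with a median of 1.03. This list holds Acta1 and Actc1, genes of the rule that chose the cells, and their part in its values was not tested. Leaving out each sample in turn left 7 of 11 to 10 of 11 thin filament genes higher, with medians from 0.50 to 1.47. Of 8 genes of excitation and calcium handling 7 were higher, with a median of 0.37, which was 0.06 without spermidine replicate 1 (7 of 9 higher). Of 8 tuft genes all 8 were lower, with a median of -0.63. Without spermidine replicate 2 the count was 5 of 8 lower and the median -0.06, and without spermidine replicate 1 the median was -2.37 (8 of 8 lower). Of 13 antigen presentation genes 10 were higher, with a median of 1.11, and for H2-Aa this came from spermidine replicate 2 (627 and 1070 with PBS, 406 and 5944 with spermidine). The direction of this list turned without that sample, where 0 of 14 were higher (median -0.998), and in clustered cells alone, where 0 of 9 were (median -1.07). Of 11 polyamine genes tested, which make, carry or degrade spermidine, 7 were higher and 4 lower, with a median of 0.11. Without spermidine replicate 2 this turned to 4 higher and 7 lower (median -0.12).

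**Figure D4:**
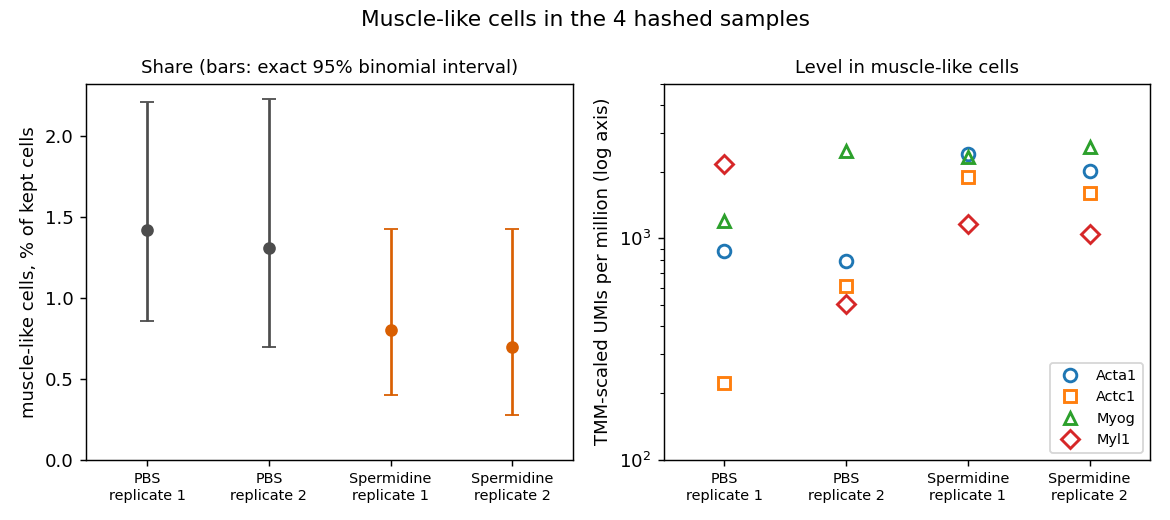
Left, muscle-like cells as a percent of the kept cells of each of the 4 hashed samples, with bars for the exact 95% binomial interval. Right, the level of Acta1, Actc1, Myog and Myl1 in muscle-like cells of each sample, in TMM-scaled CPM on a log axis. The 2 spermidine shares (0.801% and 0.695%) lie below the 2 PBS shares (1.42% and 1.31%). Acta1, Actc1, Myog and Myl1 each had an edgeR adjusted p of 0.9999.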

How the data were processed

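The deposited matrix held raw UMI counts for each barcode, gene and hashtag, which the authors obtained from Cell Ranger 7.1.0, per the file headers. Build mm10 is named in the submitters' processing notes, while annotation, cell filter and handling of multi-mapped reads are not given in the sources used here. In all there were 12139 barcodes, 55487 genes and 15 hashtags. The 7 genes, gene lists and tests were chosen with earlier results of these data known.

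Barcodes were assigned to hashed samples with HTODemux of Seurat 5.3.0 (positive quantile 0.99, 4 hashtags). Kept cells were clustered in scanpy 1.11.5 (counts per 10000, 2000 variable genes, 30 components, 15 neighbours, Leiden resolution 1) into 19 clusters. Doublets were marked by hashtag only, and doublets within a sample stay unmarked. Counts were summed per hashed sample and tested with edgeR 4.0.16 in R 4.3.3 (TMM, filterByExpr with minimum count 10 and total 15, Benjamini-Hochberg at 0.05), and with DESeq2 1.42.0 as an alternative. CPM are a gene's deposited UMIs over all gene UMIs of the cell or group, scaled to a common total and not divided by gene length, so levels are compared within a gene only. Promoters were RefSeq windows of 250 bases, in which all 7 genes matched. Named genes were the 7 of the rule, up to 5 of each list with the highest level and those without a UMI, the 5 with the smallest p on each side, and the 20 with the highest ratio outside the muscle lists; other genes named were chosen after their values were seen. Alternatives were other numbers of rule genes, filters, hashtag assignments, thinning, a replicate block and leaving out each sample.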

Additional observations from a re-analysis of the deposited data

Results flagged for a closer look

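Hashtags HT6 and HT7 have no sample in the labels. When HTODemux was run with 6 hashtags, 21 of the 84 muscle-like cells carried one of these 2 hashtags (9 with HT6 and 12 with HT7), a signal without a sample of its own in any comparison. Of all kept cells 2406 did. In that assignment 26 of the 84 cells were doublets, 1 carried no hashtag, and 11 of the 50 cells assigned with 4 hashtags became doublets. A few more of the 50 became HT6 cells. The sums per sample therefore included cells that the assignment with 6 hashtags gives to an unlabelled hashtag.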

How the results depend on the processing

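The share of muscle-like cells was lower with spermidine under all 13 alternatives, with differences from -0.708 to -0.0196 percentage points; without 1 sample the difference ran from -0.675 to -0.561. Sarcomere genes took 0.676% of the UMIs of the 84 cells, 1.10% with at least 4 of the 7 genes and 0.966% in the clustered cells alone. The count of genes that differed was 0 of 5495 in edgeR. It was 242 of 19669 without the filter on low counts (173 higher, 69 lower) and 2 with DESeq2. Leaving out 1 sample gave 0 to 447: 0 without either PBS sample, 447 of 6932 without spermidine replicate 1 and 120 of 6642 without spermidine replicate 2, where the lone sample is assumed to vary like the pair. The cause was not tested. It was 0 in the remaining alternatives, those with clustered cells only and with all cells of the muscle-led cluster included, which were chosen after seeing the data. With the replicate number as a block the count was also 0 (edgeR; unadjusted p under 0.05 in 117 genes on the higher and 81 on the lower side). The labels do not say whether the numbers pair the samples. The deviations of same-numbered samples correlated at r = 0.0005 over 5495 genes. This value cannot decide the question, since sums of 7 to 19 cells vary widely with single cells. Depth limits the sums of 7 to 19 cells per sample, and no UMI in 84 cells allows up to 3.57% of cells with a UMI, and bounds no share of cells that express the gene.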
